A study of Drosophila melanogaster with 9 samples.

Results

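Cuticle tanning and catecholamine synthesis were followed through 6 genes of Drosophila melanogaster: pale (ple), Dopa decarboxylase (Ddc), Punch (Pu), ebony (e), black (b) and yellow (y). They were chosen by symbol as the core of the pathway, and they are 6 of the 14168 entries in the deposited expression table. The libraries were made from polyadenylated RNA of wing imaginal discs, the larval epithelia that give rise to the wing and part of the thorax, taken from larvae of the third instar, the last larval stage, with 100 discs in each extraction. Control discs (en-GAL4>+) carried the GAL4 driver alone, and their data columns are named for the strain w1118. NAT10 knockdown discs (en-GAL4 > UAS-NAT10-RNAi, written NAT10 RNAi from here on) also carried an RNA interference transgene against NAT10, an enzyme that acetylates cytidines in RNA. Double knockdown discs (en-GAL4 > UAS-NAT10-RNAi,Xrp1-RNAi, written double RNAi) added a transgene against Xrp1, a transcription factor of the ribosomal stress response. Each genotype had 3 biological replicates, and the question posed by the design is how much of the transcript change after NAT10 loss needs Xrp1. All 9 libraries carried the driver, which follows engrailed and so acts in the posterior compartment, while the RNA came from whole discs. A value is therefore a mixture of targeted and untargeted cells, and fewer cells that express a gene cannot be told apart from less RNA in each cell.

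Insects harden and colour their cuticle with products of tyrosine. Pale, tyrosine hydroxylase, turns tyrosine into DOPA with the help of the cofactor tetrahydrobiopterin, whose synthesis begins with the GTP cyclohydrolase encoded by Punch. Dopa decarboxylase makes dopamine from DOPA. Black decarboxylates aspartate to beta-alanine, and Ebony joins beta-alanine to dopamine to give the precursor of tan sclerotin. Yellow is a secreted protein needed for black melanin. The same dopamine enzymes serve dopaminergic neurons, and in the epidermis they are mostly used around moults and after wounding.

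The libraries held between 14183856 and 19949448 estimated counts, and 8487 genes passed the filter on low counts. Levels are given as normalised CPM, counts scaled to a common library size, with the mean ± SD over 3 libraries, and adjusted p-values are from the quasi-likelihood test of edgeR, adjusted by Benjamini-Hochberg over all genes tested. A difference between the RNAi genotypes is double minus NAT10 RNAi. The targeted genes were lower where the labels name them: NAT10, listed as l(1)G0020, had a mean of 101 CPM in control, 62.2 under NAT10 RNAi and 74.7 under double RNAi, and Xrp1 had 521, 941 and 409. The gene en, whose domain the driver follows, fell by a like amount at 101, 61.7 and 71.8 CPM (log2 -0.71 and -0.49 against control, beside -0.70 and -0.44 for NAT10), and less NAT10 RNA per cell cannot be told apart from fewer cells of that domain. Both were higher under double than under NAT10 RNAi (log2 0.26 for NAT10, adjusted p = 7.11e-06, and 0.22 for en, adjusted p = 6.47e-05). No genotype carried the Xrp1 transgene alone. Loss of Xrp1 therefore cannot be told apart from a lesser loss of NAT10 in differences between the RNAi genotypes. Discs carried their own markers, with 10 wing disc genes such as vg and nub adding up to 4440 to 4600 CPM in control, 3500 to 3550 under NAT10 RNAi and 4380 to 4420 under double RNAi. Of these 10 genes, 9 were lower and 1 higher under NAT10 RNAi, and 3 were lower and 1 higher under double RNAi. Calls in lists, here and below, are to be read beside those of all genes tested. Of all genes, 62.1% were called under NAT10 RNAi against control and 31.3% under double RNAi against control. Between the RNAi genotypes the share was 56.7%. A list of 8 neuronal genes summed to 100 to 112 CPM in control, 101 to 109 under NAT10 RNAi and 109 to 111 under double RNAi. Most of each sum came from elav, at means of 83.7, 85.4 and 86.0 CPM. Of the 4 tested genes of this list only Syt1 was called against control. It was lower under NAT10 RNAi (log2 -1.41 ± 0.443) and higher under double RNAi (log2 1.59 ± 0.289). Syt1 needed its double RNAi libraries to pass the filter, so its rise there was in part built in. The synaptic gene Syn had no counts in control, the dopamine transporter gene DAT none under NAT10 RNAi, and Syn and Vmat none under double RNAi. The salivary gland list of 7 genes summed to at most 1.35 CPM in any library, and its single gene past the filter, fkh, had 0 counts in control and NAT10 RNAi and passed through the 38 counts of double RNAi alone.

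All 6 genes were expressed at low levels in these discs. Control means ran from 0.195 CPM (y) to 8.69 CPM (Pu), without correction for transcript length. Ddc and Pu reached the filter level of 0.557 CPM in every library. For ple and b it was reached in all control and double RNAi libraries but in only 1 of 3 NAT10 RNAi libraries each. The gene e reached it only in control and y only under double RNAi, so a difference in those genes was built into their passing, and no summary over the 6 genes is offered as support. Leaving their choice aside, the 6 were spread over the genome (BDGP6.54 annotation, positions 1-based): ple on 3L from 6713356 to 6719525 (minus strand), Ddc on 2L from 19116483 to 19120306 (minus), Pu on 2R from 21175315 to 21182608 (plus), e on 3R from 21229839 to 21237177 (minus), b on 2L from 13821248 to 13823979 (plus) and y on X from 356509 to 361245 (plus).

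**Figure D1:**
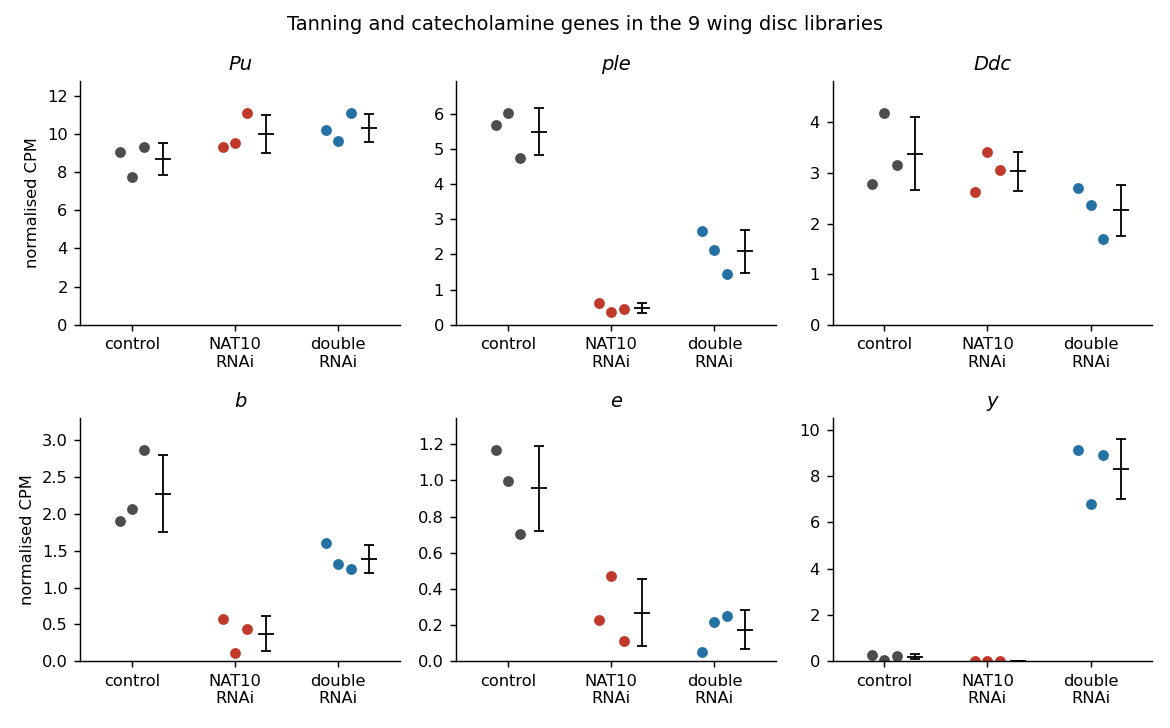
Normalised CPM (linear axes from 0, a separate scale for each gene) of the 6 genes in the 3 control, 3 NAT10 RNAi and 3 double RNAi libraries; points are single libraries and black bars are the mean ± SD. The genes ple and b were lowest under NAT10 RNAi, e was low in both RNAi genotypes, and y stood above 6 CPM only under double RNAi.

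Pale, the enzyme that starts the pathway, fell under NAT10 RNAi and less so under double RNAi. Its level was 5.69, 6.03 and 4.74 CPM in the control libraries, 0.629, 0.353 and 0.444 under NAT10 RNAi and 2.66, 2.14 and 1.45 under double RNAi. The 3 genotypes did not overlap, with double RNAi lying between the others. From a mean of 5.49 ± 0.666 in control it fell to 0.476 ± 0.141 under NAT10 RNAi (log2 -3.50 ± 0.283 SE, 11.3-fold lower, adjusted p = 3.61e-11). The NAT10 RNAi libraries held only 25 ple counts in all, against 268 in control and 121 under double RNAi. With Xrp1 also depleted the level was 2.09 ± 0.605, which was 4.32-fold above NAT10 RNAi (log2 2.11 ± 0.327, adjusted p = 4.17e-06) and still 2.62-fold below control (log2 -1.39 ± 0.209, adjusted p = 8.21e-06).

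For Dopa decarboxylase, the next enzyme, no comparison passed. It was at 2.79, 4.19 and 3.16 CPM in control, 2.63, 3.42 and 3.06 under NAT10 RNAi and 2.71, 2.36 and 1.70 under double RNAi. Control and NAT10 RNAi overlapped, while every double RNAi library lay below every control library by a small margin. The difference between NAT10 RNAi and control did not pass (log2 -0.14 ± 0.211, adjusted p = 0.586), with an approximate 95% interval from -0.55 to 0.27 on the log2 scale. Under double RNAi the log2 difference from control was -0.56 ± 0.218 (adjusted p = 0.0503; 0.0287 without control replicate 1, 0.0333 without double RNAi replicate 1, 0.0316 with no filter on low counts, 0.0481 with the size factors of DESeq2 and 0.0439 with limma on log2(FPKM + 1)). Against NAT10 RNAi it was -0.43 ± 0.218 (adjusted p = 0.1). A stretch of 3.1% of its exon bases is shared with CG10561 on the opposite strand, whose level was not called different between any of the genotypes.

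Punch, at the head of cofactor synthesis, had the highest level of the 6 per transcript length. Its libraries stood at 9.03, 7.74 and 9.31 CPM in control, 9.32, 9.54 and 11.1 under NAT10 RNAi and 10.2, 9.61 and 11.1 under double RNAi. Every RNAi library was above every control library, although the lowest of them exceeded the highest control by less than the spread within a genotype. No comparison passed: the log2 difference from control was 0.20 ± 0.113 under NAT10 RNAi (adjusted p = 0.136, interval -0.03 to 0.42) and 0.24 ± 0.111 under double RNAi (adjusted p = 0.103, interval 0.02 to 0.46), and the RNAi genotypes differed by 0.05 ± 0.107 (adjusted p = 0.742).

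Black, which supplies beta-alanine, was lower under NAT10 RNAi, and higher again with Xrp1 also depleted. Its libraries stood at 1.90, 2.06 and 2.87 CPM in control, 0.572, 0.118 and 0.444 under NAT10 RNAi and 1.61, 1.32 and 1.25 under double RNAi. The genotypes again did not overlap, and double RNAi again lay in the middle. The mean fell from 2.27 ± 0.522 to 0.378 ± 0.234 under NAT10 RNAi (log2 -2.56 ± 0.373, 5.89-fold lower, adjusted p = 1.42e-06) and was 1.39 ± 0.188 under double RNAi. That is 3.61-fold above NAT10 RNAi (log2 1.85 ± 0.399, adjusted p = 0.000291). The remaining log2 difference from control, -0.71 ± 0.283, did not pass (adjusted p = 0.0601; 0.0492 without control replicate 1, 0.0471 without NAT10 RNAi replicate 2, 0.0437 when only the 2 genotypes compared were fitted and 0.0486 with limma on log2(FPKM + 1)). The end of b lies 1 base from tam, which is on the opposite strand and stood at 23.5, 31.5 and 26.5 CPM in control, NAT10 RNAi and double RNAi. The direction of tam was opposite to that of b under NAT10 RNAi (log2 0.43, adjusted p = 4.99e-06).

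Ebony, which uses the product of Black, was lower in both RNAi genotypes. Its counts were 21, 14 and 12 in the control libraries, 4, 8 and 2 under NAT10 RNAi and 1, 4 and 5 under double RNAi. All control libraries were above all RNAi libraries, and the RNAi genotypes overlapped each other. From 0.956 ± 0.236 CPM in control the level fell to 0.270 ± 0.184 under NAT10 RNAi (log2 -1.81 ± 0.509) and to 0.174 ± 0.108 under double RNAi (log2 -2.43 ± 0.544). Without NAT10 RNAi replicate 2 the first of these log2 values was -2.47 ± 0.627. The gene e passed the filter through its control libraries alone, so both differences were built into its passing and are given without a test. Between the RNAi genotypes the difference did not pass (log2 -0.61 ± 0.707, adjusted p = 0.482). The 10 counts of double RNAi and 14 of NAT10 RNAi gave a ratio of 0.645 with an exact 95% counting interval of 0.256 to 1.56, so a return of the size seen for ple or b lies outside it, as far as counting error goes.

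Yellow was highest under double RNAi. Its counts were 5, 1 and 4 in the control libraries, 0, 0 and 0 under NAT10 RNAi and 182, 124 and 178 under double RNAi. The level was 8.29 ± 1.29 CPM under double RNAi and 0.195 ± 0.109 in control, a ratio of 40.9 with a counting interval of 22.1 to 85.9. It was at least 145-fold above NAT10 RNAi for a floor of 3 counts over that group, or 0.0572 CPM. The gene y passed the filter through its double RNAi libraries alone, so both differences were built into its passing and are given without a test. Between control and NAT10 RNAi the 10 control counts against 0 make the level at least 3.40-fold lower (adjusted p = 0.00376), a call that the authors' deposited table does not share (FDR 0.0904) and that was also not made with limma on log2(FPKM + 1) (adjusted p = 0.26). With only these 2 genotypes fitted y did not pass the filter, which left 5 of the 6 genes tested and 3 called. The 3 were ple, b and e, which in that fit passed through their control libraries, so their lower level was built into their passing.

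Counts and medians over the 6 genes are given as description and not as support. The calls of e against control, and of y under double RNAi, are counted although they were built into their passing the filter. Over the 6 genes, 4 were lower and 0 higher under NAT10 RNAi than in control, with Ddc and Pu not passing. Among all genes tested 62.1% were called in that comparison, 29.6% lower and 32.5% higher. The median log2 fold change was -2.19 for the 6 genes (-1.79 with y at its bound) and 0.03 for all genes. Under double RNAi against control 2 were lower (ple and e) and 1 higher (y), where 31.3% of all genes were called, 15.5% lower and 15.7% higher; scaled by total counts alone, 1044 genes were lower and 1613 higher in place of 1318 and 1335. The median was -0.63 for the 6 genes and 0.00 for all. Between double and NAT10 RNAi 3 were higher (ple, b and y) and 0 lower, where 56.7% of all genes were called, 28.4% higher and 28.3% lower. The median was 0.95 for the 6 genes and -0.01 for all. The comparisons share libraries and are not independent of each other.

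**Figure D2:**
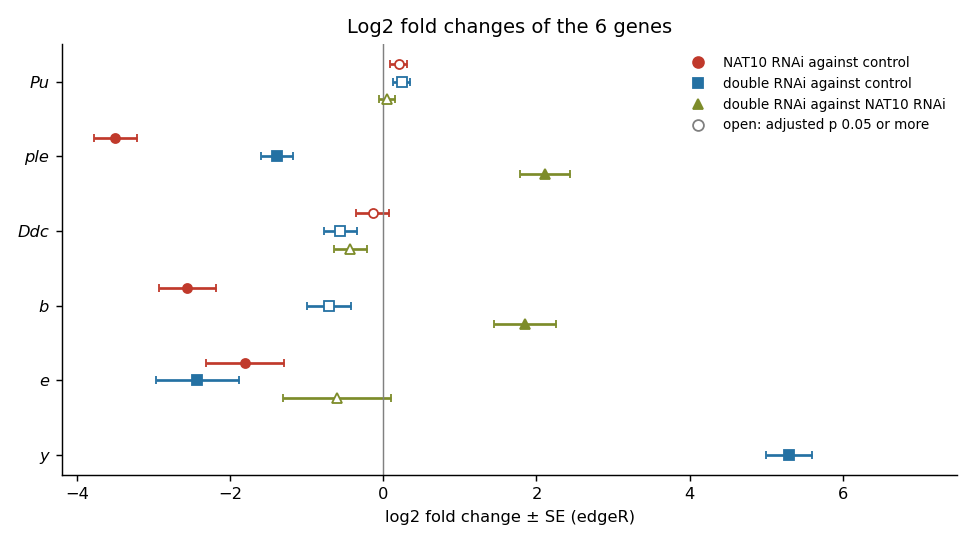
Log2 fold change ± SE (x axis) of each of the 6 genes in 3 comparisons, from the fit over all 9 libraries; filled symbols had an adjusted p under 0.05, and comparisons of y with NAT10 RNAi are left out because all its counts there were 0. The symbols of ple and b lie on opposite sides of 0 for NAT10 RNAi against control and for double against NAT10 RNAi, while those of Pu and Ddc lie within 0.6 of 0. The differences of e against control, and of y under double RNAi against control, were built into their passing the filter.

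The authors' deposited tables, which cover both comparisons with control, gave the same directions for all 6 genes. In their table for NAT10 RNAi ple was at log2 -3.49 (FDR 2.37e-16) and b at -2.58 (FDR 3.39e-05), while e was at -1.81 with an FDR of 0.0515. In their table for double RNAi the FDR was 5.62e-25 for y, 0.00151 for ple, 0.0261 for e and 0.402 for b.

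Levels of different genes can be set side by side only per transcript length, for which the authors' FPKM were used. In control the order of mean FPKM was Pu (4.85 ± 0.479), ple (1.75 ± 0.215), Ddc (1.66 ± 0.321), b (1.10 ± 0.270), e (0.301 ± 0.0738) and y (0.0947 ± 0.0527). The libraries of ple and Ddc overlapped, as did those of Ddc and b, so those neighbours in the order did not differ beyond their spread. Under NAT10 RNAi Pu (5.62 ± 0.553) and Ddc (1.51 ± 0.179) kept the upper places, and b (0.183 ± 0.114), ple (0.156 ± 0.0441) and e (0.0857 ± 0.0580) overlapped below them, with y listed at 0. Transcripts of Ddc and ple were thus close to equal in control but not under NAT10 RNAi. Under double RNAi Pu (5.86 ± 0.355) was followed by y (4.10 ± 0.626) and Ddc (1.09 ± 0.256), then by ple and b, both at 0.680, and by e (0.0557 ± 0.0346).

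**Figure D3:**
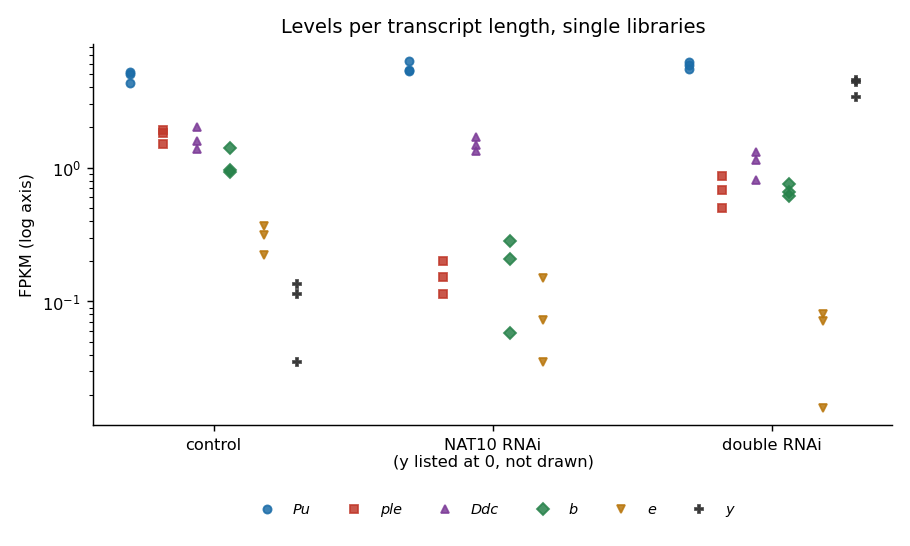
FPKM (logarithmic y axis) of the 6 genes in single libraries of the 3 genotypes, a scale corrected for transcript length; y is not drawn under NAT10 RNAi, where it is listed at 0. In control ple and Ddc lie together near 1.7, under NAT10 RNAi ple lies near 0.156 and Ddc near 1.51, and y lies near 4.10 under double RNAi.

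The yellow gene is also used to mark transgenes and landing sites in the fly, as are vermilion (v), an enzyme of eye pigment synthesis, and rosy (ry), xanthine dehydrogenase. The labels do not name the RNAi lines. Counts of v were 0, 0 and 0 in control, 0, 1 and 0 under NAT10 RNAi and 25, 16 and 29 under double RNAi. Those of ry were 7, 7 and 7, then 2, 1 and 0, then 26, 30 and 28. Both were therefore highest in all double RNAi libraries, as y was. Both passed the filter through their double RNAi libraries alone, so their difference there was built into their passing and is given without a test: v was at least 19.6-fold above control, and ry was at a mean of 1.45 CPM against 0.432. Under NAT10 RNAi ry was lower than in control (log2 -2.76 ± 0.755, adjusted p = 0.0026). The neighbour of y at higher coordinates, the proneural gene ac, 8786 bases away, was at 29.5, 24.5 and 31.0 CPM in the 3 genotypes and did not pass under double RNAi against control (log2 0.07, adjusted p = 0.425).

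**Figure D4:**
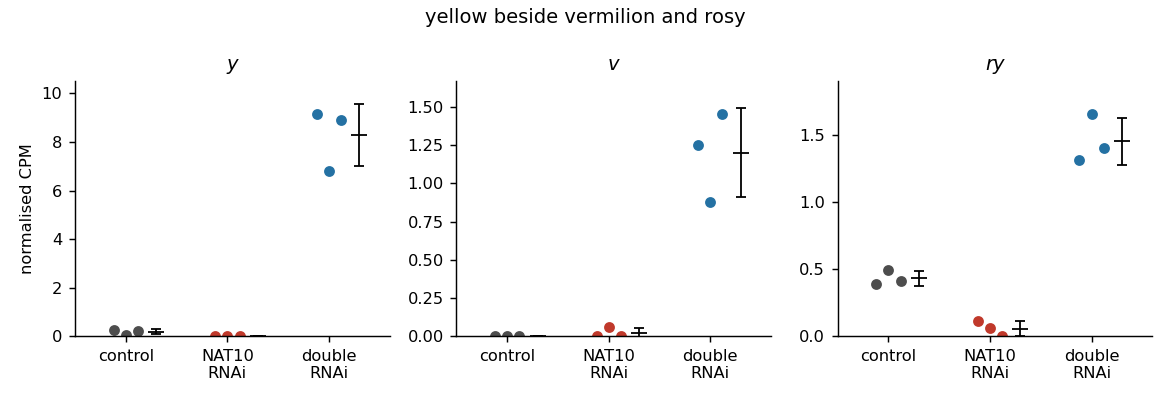
Normalised CPM (linear axes from 0, separate scales) of yellow, vermilion and rosy in single libraries, with the mean ± SD as black bars. For each gene the 3 double RNAi libraries lie above the other 6, at a mean of 8.29 for y, 1.20 for v and 1.45 for ry.

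Fat body transcripts were also highest under double RNAi, and most of those tested were higher under NAT10 RNAi than in control. The 9 genes of a fat body list, led by the storage proteins, summed to 14.9 to 17.2 CPM in control, 65.9 to 73.7 under NAT10 RNAi and 1340 to 1390 under double RNAi, and none was at 0 in any genotype. Of its 8 tested genes 6 were higher under NAT10 RNAi and 8 under double RNAi. Those not called under NAT10 RNAi were Fbp1 (adjusted p = 0.38) and Adh (adjusted p = 0.171). Adh passed the filter through its double RNAi libraries alone, so its call there was built into its passing. The shares called, 75.0% and 100%, stand beside 62.1% and 31.3% of all genes. The part that a transgene marker or other tissue takes in the y counts was not tested.

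For each of the 6 genes the 3 genes of most similar pattern were sought among 7066 others with a mean of at least 5 CPM. Likeness was the root mean square difference of centred log2 CPM over the 9 libraries. Nearest to ple were CG4586, Fkbp14 (a peptidyl-prolyl isomerase gene) and CG15905, at differences of 0.366, 0.421 and 0.428 against a median of 1.38 over all compared. CG4586, for instance, had means of 64.9, 6.91 and 37.6 CPM in control, NAT10 RNAi and double RNAi. CG15905 was also nearest to b, at 0.382, followed by CG10663 and the Toll ligand relative spz6, both at 0.396. The genes nearest to y were Syt4 (a synaptotagmin gene, difference 0.785), the fat body gene Fbp1 (0.802) and CG11892 (0.935). All 3 reached a mean of 5 CPM through double RNAi alone, the group through which y passed the filter, so this likeness was in part built in. Fbp1 had means of 2.90, 3.29 and 252 CPM in the 3 genotypes. For e the closest were an unnamed assembled locus, NijA and Prosalpha1 (0.649 to 0.669), for Pu CG3939, CG6878 and CG12375 (0.056 to 0.075), and for Ddc tty, CG7650 and another unnamed assembled locus (0.192 to 0.197).

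The rest of the pathway was read from 6 lists of 51 genes, of which 31 passed the filter. Under NAT10 RNAi 9 of these were higher and 12 lower than in control, under double RNAi 8 and 5, and between double and NAT10 RNAi 11 were higher and 7 lower. The shares called, 67.7%, 41.9% and 58.1%, stand beside 62.1%, 31.3% and 56.7% of all genes, and the list medians were -0.05, 0.02 and 0.05 on the log2 scale.

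Genes that make and recycle tetrahydrobiopterin, listed with the regulator gene Catsup, differed by small amounts. All 5 were tested, with 1 higher and 1 lower under NAT10 RNAi, 1 higher under double RNAi, and 3 higher and 1 lower between the RNAi genotypes. The shares called were 40.0% under NAT10 RNAi and 80.0% between the RNAi genotypes, beside 62.1% and 56.7% of all genes. Under double RNAi 1 of 5 was called, beside 31.3% of all genes. Sptr, sepiapterin reductase, rose from 30.1 ± 0.812 CPM to 37.4 ± 0.476 under NAT10 RNAi (adjusted p = 5.37e-05) and was 30.1 ± 1.04 under double RNAi. Catsup, a zinc transporter gene and negative regulator of pale and Punch activity, fell from 173 ± 7.60 to 142 ± 8.08 under NAT10 RNAi (adjusted p = 2.04e-06) and stood at 165 ± 5.28 under double RNAi. For pr, which encodes the next enzyme after Punch, and Dhpr, dihydropteridine reductase, differences between the RNAi genotypes passed (log2 0.16 ± 0.056 and 0.13 ± 0.048). The call for pr was lost without double RNAi replicate 1 (adjusted p = 0.119), and that for Dhpr without NAT10 RNAi replicate 2 (0.0546) or double RNAi replicate 3 (0.0523). Against control pr under double RNAi (log2 0.14 ± 0.057, adjusted p = 0.061) passed without control replicate 1 (0.0183) or double RNAi replicate 2 (0.0489). Dhpr was also above control under double RNAi (0.18 ± 0.049, adjusted p = 0.00687).

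Other amine and beta-alanine enzymes included amd, the gene with the largest increase over control among the tested genes of the 6 lists. Of 12 genes 4 were tested, with 2 higher and 1 lower in each comparison with control, and 1 higher and 2 lower between the RNAi genotypes. The share called was 75.0% in each comparison, beside 62.1%, 31.3% and 56.7% of all genes. Transcripts of amd, a relative of Ddc needed for cuticle formation, were at 11.2 ± 0.637 CPM in control, 56.4 ± 4.24 under NAT10 RNAi and 18.1 ± 1.14 under double RNAi. It rose by 2.33 ± 0.077 on the log2 scale under NAT10 RNAi (adjusted p = 2.22e-19) and was lower by 1.64 under double than under NAT10 RNAi (log2 -1.64 ± 0.070, adjusted p = 7.66e-17). It lies 2373 bases from Ddc, which did not pass in the same libraries. On the other side of Ddc, 1039 bases away, l(2)37Cc rose by 0.26 under NAT10 RNAi (adjusted p = 7.39e-09). Tdc1, tyrosine decarboxylase, rose from 2.00 ± 0.250 to 5.26 ± 0.655 CPM under NAT10 RNAi (adjusted p = 1.03e-06), with 2.70 ± 0.599 under double RNAi. Henna (Hn), phenylalanine hydroxylase, was highest under double RNAi at 4.24 ± 0.458 against 1.61 ± 0.335 in control (adjusted p = 8.42e-06). CRMP, which encodes a dihydropyrimidinase that acts in the breakdown of uracil to beta-alanine, fell by 0.61 ± 0.099 and 0.42 ± 0.096 under NAT10 and double RNAi. Between these genotypes it passed only when NAT10 RNAi replicate 1 was left out (adjusted p = 0.0408; 0.112 with all libraries). The gene tan (t), whose product reverses the Ebony reaction, had 0, 3 and 19 counts in control, NAT10 RNAi and double RNAi and was not tested. AANAT1, which acetylates dopamine, had 23, 6 and 38 counts and was not tested either. Nor were Tdc2, a second tyrosine decarboxylase gene, with 1, 29 and 3 counts, and pyd3, a beta-ureidopropionase gene of beta-alanine synthesis, with 1, 26 and 38.

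Of 13 relatives of yellow 9 were tested, with 4 higher and 3 lower under NAT10 RNAi (where 32.5% of all genes were higher and 29.6% lower), 3 higher and 1 lower under double RNAi, and 2 higher and 2 lower between the RNAi genotypes. The shares called, 77.8%, 44.4% and 44.4%, stand beside 62.1%, 31.3% and 56.7% of all genes. The neighbours yellow-e and yellow-e2 were at 12.0 and 24.6 CPM in control and rose in both RNAi genotypes by log2 0.22 to 0.41. Under double RNAi these increases did not pass without control replicate 1 (yellow-e, adjusted p = 0.0595), control replicate 2 (yellow-e, 0.0978), control replicate 3 (yellow-e2, 0.117) or double RNAi replicate 1 (0.147 for yellow-e and 0.0561 for yellow-e2). Between double and NAT10 RNAi yellow-e2 was lower (log2 -0.17 ± 0.068, adjusted p = 0.0347), and the adjusted p reached 0.0516 to 0.234 without any 1 of 5 libraries, NAT10 RNAi replicates 1 and 3 and double RNAi replicates 1, 2 and 3. That call was also lost with DESeq2 (0.0949), total counts only (0.0516), the 5 CPM filter (0.0512) and limma (0.0609 and 0.0601 at pseudocounts of 0.1 and 1), and the call of yellow-e under double RNAi with DESeq2 (0.0603). For yellow-b the level was 19.0 ± 1.66, 34.2 ± 0.884 and 20.4 ± 1.37 CPM in control, NAT10 RNAi and double RNAi (adjusted p = 2.01e-10 for NAT10 RNAi against control). The dopachrome conversion enzyme gene yellow-f, at 24, 5 and 52 counts in the 3 genotypes, was lower under NAT10 RNAi than in control (log2 -2.28 ± 0.707, adjusted p = 0.00691). It passed the filter only through double RNAi, where its level was 0.893 ± 0.185 CPM against 0.0954 ± 0.0661 under NAT10 RNAi, a difference given without a test. The genes yellow-g and yellow-g2 had 0 counts in all libraries.

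Oxidases that crosslink or melanise cuticle and clots were divided. Of 7 genes 5 were tested, with 3 lower under NAT10 RNAi, 2 lower and 1 higher under double RNAi, and 1 higher between the RNAi genotypes. The share called was 60.0% in each comparison with control, beside 62.1% and 31.3% of all genes. Between the RNAi genotypes 1 of 5 was called, beside 56.7% of all genes. Straw (stw), laccase of the cuticle, was at 82.2 ± 2.43, 72.6 ± 1.63 and 91.9 ± 1.94 CPM, which was lower than control under NAT10 RNAi (log2 -0.18 ± 0.042, adjusted p = 0.000609) and higher under double RNAi (0.16 ± 0.040, adjusted p = 0.00283). The crystal cell phenoloxidase genes PPO1 and PPO2 fell in both RNAi genotypes. PPO2 went from 6.55 ± 0.941 to 1.32 ± 0.453 under NAT10 RNAi (log2 -2.30 ± 0.220) and 1.83 ± 0.252 under double RNAi (log2 -1.83 ± 0.202), and PPO1 from 4.53 ± 0.400 to 1.05 ± 0.269 and 1.08 ± 0.333. PPO3 did not pass (smallest adjusted p = 0.187). A list of 8 blood cell genes that includes PPO1 and PPO2 summed to 59.1 to 63.6 CPM in control, 46.2 to 48.3 under NAT10 RNAi and 46.0 to 48.8 under double RNAi, with 5 and 3 of 7 tested genes lower and none at 0. PPO1 and PPO2 were among the lower genes in both RNAi genotypes, so the list is not independent of them. The other lower genes were NimC1, srp and crq under NAT10 RNAi, and crq under double RNAi. Hml (4.42, 5.55 and 3.77 CPM in control, NAT10 RNAi and double RNAi) and eater were not called against control. The shares called, 71.4% and 42.9%, stand beside 62.1% and 31.3% of all genes. The part of blood cells in the phenoloxidase values was not tested.

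Dopamine transport and reception was barely detected. None of 6 genes (Vmat, DAT, Dop1R1, Dop1R2, Dop2R and DopEcR) passed the filter, and Dop1R1 and Dop2R had 0 counts in all 9 libraries. DAT had 18 counts over the 3 control libraries, 0 under NAT10 RNAi and 2 under double RNAi.

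Transcription factors and signalling genes that act on this pathway or on epidermal repair were measured as well, with kkv, a chitin synthase gene. All 8 were tested, with 2 higher and 4 lower under NAT10 RNAi, 1 higher and 1 lower under double RNAi, and 4 higher and 2 lower between the RNAi genotypes. The gene kkv was among the higher under NAT10 RNAi (log2 0.12 ± 0.025) and among the lower between the RNAi genotypes (log2 -0.11 ± 0.025). The shares called, 75.0%, 25.0% and 75.0%, stand beside 62.1%, 31.3% and 56.7% of all genes. Grainyhead (grh), which activates ple and Ddc in wounded embryonic epidermis, went from 419 ± 4.25 to 291 ± 8.11 CPM under NAT10 RNAi (log2 -0.53 ± 0.027, adjusted p = 3.73e-15) and was 416 ± 8.62 under double RNAi. Broad (br), an ecdysone-induced factor, went from 3270 ± 89.3 to 1470 ± 23.9 (adjusted p = 3.12e-23), with 3090 ± 38.4 under double RNAi, where the difference from control (log2 -0.08 ± 0.025, adjusted p = 0.0146) was lost without double RNAi replicate 2 (adjusted p = 0.0913), with total counts only (0.0962) and with limma (0.0877 and 0.0866 at pseudocounts of 0.1 and 1). The ecdysone receptor gene EcR rose from 176 ± 6.27 to 318 ± 7.06 and 251 ± 6.40 under NAT10 and double RNAi (adjusted p = 1.04e-18 and 4.84e-13). The kinase gene msn fell by 0.30 ± 0.029 on the log2 scale under NAT10 RNAi. Under double RNAi it was at -0.07 ± 0.029, and passed without double RNAi replicate 3 (adjusted p = 0.0426; 0.08 with all libraries). Rickets (rk), the receptor for the tanning hormone bursicon, was picked out after its values were seen. It fell from 4.86 ± 0.673 to 1.09 ± 0.369 CPM under NAT10 RNAi (log2 -2.15 ± 0.228, adjusted p = 6.24e-09) and was 4.25 ± 0.319 under double RNAi, where the difference from control did not pass (adjusted p = 0.434). Beside these genes, 6 tracheal genes summed to 908 to 936, 1220 to 1280 and 1030 to 1070 CPM in control, NAT10 RNAi and double RNAi. Of these, 3 were higher and 3 lower under NAT10 RNAi, and 3 higher under double RNAi. For 8 muscle genes the sums were 169 to 180, 222 to 228 and 178 to 195 CPM, with 2 higher and 6 lower, then 1 higher and 6 lower. Most of each muscle sum came from sls, at 99.7, 182 and 143 CPM, so the sums rose while most of the 8 genes fell. The muscle shares called were 100% and 87.5%. The part of these tissues in the pathway values was not tested.

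**Figure D5:**
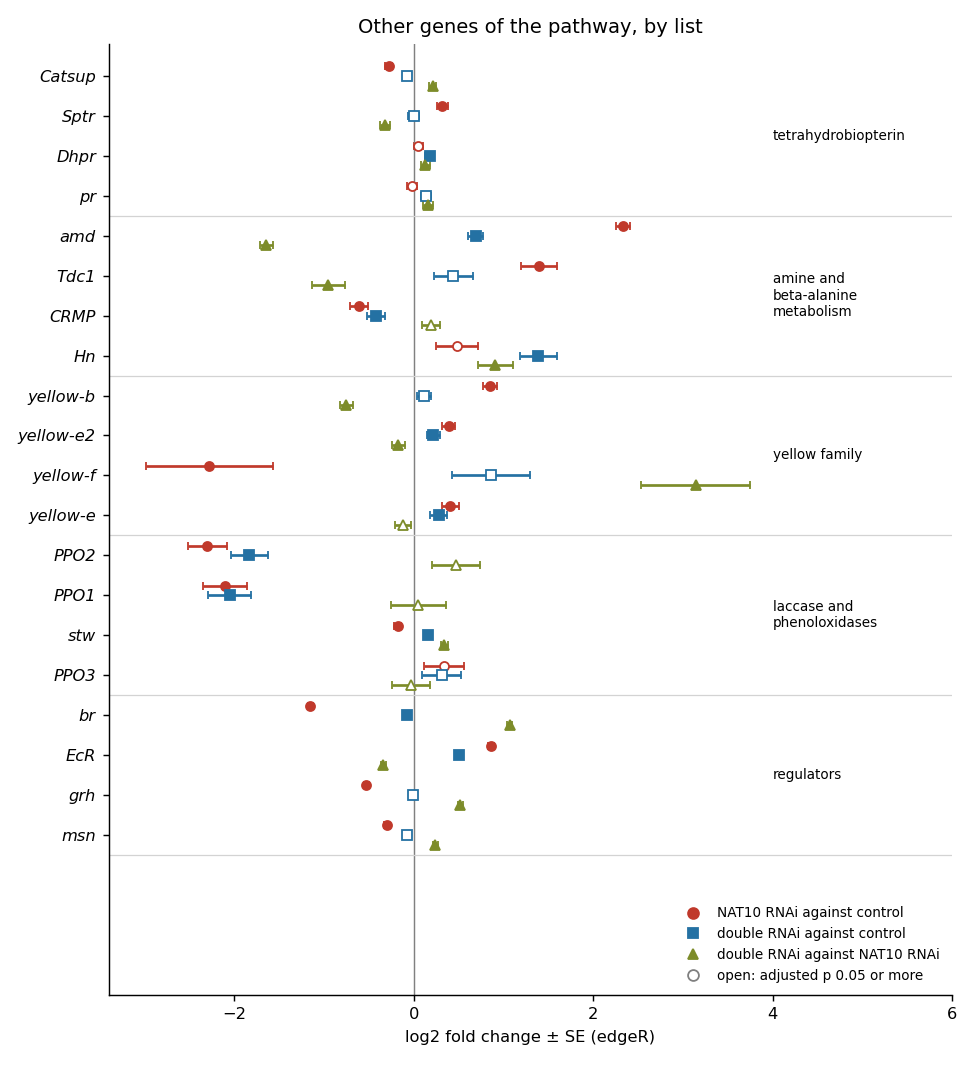
Log2 fold change ± SE (x axis) of up to 4 genes with the smallest adjusted p from each of 5 pathway lists (no gene of the dopamine transport list was tested), in 3 comparisons; filled symbols had an adjusted p under 0.05. The largest increase over control is amd at 2.33 under NAT10 RNAi, yellow-f passed the filter only through double RNAi, and PPO1 and PPO2 lie near -2 in both RNAi genotypes against control.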

How the data were processed

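The authors deposited estimated counts for each gene in each library. The submitters' processing notes name RSEM, StringTie 1.3.1, HISAT2 2.1.0 and fastp 0.18.0 as tools, with no role for any of them. The build, annotation and strand setting are not given in the sources used here. FPKM per library were deposited by the authors and used here to order genes and in 2 alternatives. In the authors' comparison tables the log2 values are ratios of group mean FPKM, and the p-value and FDR columns come from a test not given in the sources used here.

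Counts, of which 8.19% to 9.11% per library were not whole, were rounded. Low genes were removed with filterByExpr, libraries were scaled by TMM, and the quasi-likelihood model (robust) of edgeR 4.0.16 under R 4.3.3 was fitted to all 9 libraries at once. A gene was called at a Benjamini-Hochberg adjusted p under 0.05. A floor of 3 counts was 0.150 to 0.213 CPM in a library. Counting intervals (95%, exact binomial) and floors cover counting error only. Approximate 95% intervals of log2 values were taken from the SE. Replicate pairs correlated at 0.994 to 0.995 and differed by more than sampling noise. Alternatives used DESeq2 1.42.0 and limma 3.58.1; the steps were tested on simulated data. Tables and plots were made in Python 3.11.15. Gene positions came from Ensembl BDGP6.54 release 115.

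The 6 genes and all lists were chosen with earlier results of these data known. All 6 are named, with up to 4 genes per pathway list by smallest adjusted p, and 3 genes of most similar pattern for each. Sequences of the genes were not analysed here.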

Additional observations from a re-analysis of the deposited data

How the results depend on the processing

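Most values kept their direction and their side of the threshold. Of the alternatives run on the 6 genes, apart from leaving out a library, 160 values were of the same direction and side, 5 passed that had not, and 1 no longer passed: y under NAT10 RNAi against control with limma on log2(FPKM + 1), at -0.13. With 1 as pseudocount, 5 of the 6 genes were called under double RNAi against control in place of 3. A filter of at least 5 CPM in 3 libraries left 2 of the 6 genes, Pu and y, to be tested. Of these y was the 1 called in each of the 3 comparisons. It passed that filter through its double RNAi libraries alone, so its differences there were built in. The genes ple, Ddc, b and e were not tested under this setting. Leaving out a library gave 4 called genes under NAT10 RNAi against control, 3 to 5 under double RNAi against control (5 without control replicate 1) and 3 between double and NAT10 RNAi. The sign changed in values that did not pass: without 1 library the log2 value ran from -0.26 to 0.03 for Ddc and -0.07 to 0.02 for pr under NAT10 RNAi, from -0.02 to 0.03 for Sptr and -0.03 to 0.00 for grh under double RNAi, and from -0.97 to 0.04 for e, -0.21 to 0.28 for PPO1 and -0.15 to 0.21 for PPO3 between the RNAi genotypes. Under double RNAi against control Sptr also stood at 0.02 with total counts only and with limma at either pseudocount, 0.01 with the 5 CPM filter and 0.00 with only the 2 genotypes fitted, and grh at 0.01 with total counts only and 0.02 with limma. No scaling moved the median of all genes by over 0.1. Same-numbered libraries were not paired (correlations of deviations from -0.028 to 0.077). The fit with a replicate block called 4, 3 and 3 of the 6 genes in the 3 comparisons, as without it, and pr passed under double RNAi against control (adjusted p = 0.0397). Depth limits e, y and the other genes with 10 or fewer counts in a genotype, such as v, ry, tan, yellow-f, AANAT1 and DAT.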
